A study of Mus musculus with 6 samples.

Results

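The complement genes described here are 9 rows of a count table of 54532 mouse genes, taken by gene symbol: C1qa, C1qb, C1qc, C3, Cfb, Cfp, C5ar1, C3ar1 and Cd55. The rule uses names only, but these names were chosen with earlier results of these data known. The libraries are from bone-marrow-derived macrophages, the phagocytes grown from mouse marrow, and every one of the 6 cultures had been treated with monosodium urate (MSU), the crystal of gout. In 3 of them the cells were labelled Tet2 knockout and in 3 wild-type. The Tet2 product is a dioxygenase acting on 5-methylcytosine, a step towards the removal of DNA methylation. The labels give neither the Tet2 allele nor the age or sex of the mice, the MSU dose or the exposure time, and whether the replicates of a label are different animals is not stated. A p-value here therefore speaks only of how far these 6 libraries scatter, and part of that scatter may be technical.

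Complement is a cascade of plasma proteins that marks targets and calls in phagocytes. In the classical pathway C1q, built from the A, B and C chains encoded by C1qa, C1qb and C1qc, binds antibody or altered surfaces, and in the alternative pathway factor B (Cfb) and properdin (Cfp) amplify the cleavage of C3. The fragments C3a and C5a act on the receptors encoded by C3ar1 and C5ar1, while CD55 speeds the decay of the enzymes that cleave C3. The liver makes most circulating components, whereas macrophages are a main source of C1q and properdin.

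The shallowest library, wild-type replicate 2, held 11997104 counts and the deepest, knockout replicate 1, held 14481843. Tet2 itself was not lower in the libraries labelled knockout, at 33.7 ± 0.799 CPM against 29.3 ± 1.41 CPM (SD, n = 3 each), where CPM is the count scaled to a fixed library size after TMM normalisation. Tet2 was called higher under the knockout label (log2 change 0.20, SE 0.07; edgeR adjusted p = 0.0159), a call lost in 4 of 15 alternative settings. A count over all exons need not show a partial deletion, and reads of single exons were not examined. The genotype behind the labels was therefore not tested, and directions below are those of the labels. All 9 macrophage markers were measured, with a summed level of 7035 to 7304 CPM in the libraries labelled knockout and 6845 to 7251 CPM in the others. Within that sum the markers moved in both directions, with 4 higher (Adgre1 at 1.71 times the wild-type level, Mertk at 1.57, Csf1r at 1.47 and Fcgr1 at 1.151) and 3 lower (Lyz2 at 0.722, Cd14 at 0.882 and Cd68 at 0.939) by an edgeR adjusted p of 0.05. Their part in the complement values was not tested. All 10 connective tissue markers were measured as well, none at 0, and summed to 7085 to 7265 CPM and 7587 to 8100 CPM. Of these, 6 were lower and 1 (Col3a1) was higher in the libraries labelled knockout by an edgeR adjusted p of 0.05. Beside the counts of both lists, 21.6% of all tested genes were higher and 19.2% lower by that threshold. Fibroblasts also make C3, C1r, C1s and the C1 inhibitor, and the part of such cells in the values below was not tested. Of the 6 hepatocyte markers, 4 (Alb, Ttr, Serpina1a and Fgb) were at 0 in every library, and the list summed to 0.605 to 0.982 CPM under the knockout label and at most 0.142 CPM under the other. The T and NK cell list summed to 11.5 to 12.6 CPM under the knockout label and 3.55 to 4.24 CPM under the wild-type label, nearly all of it Cd4. Monocyte markers summed to 82.2 to 87.9 against 93.9 to 99.9 CPM, nearly all of it Vcan (means 84.2 and 96.6 CPM). Endothelial markers summed to 40.0 to 41.1 against 33.4 to 37.7 CPM, mostly Cdh5 and Kdr. Kdr was higher under the knockout label (21.0 against 15.1 CPM, edgeR adjusted p = 1.96e-05). Cdh5 did not pass (18.2 against 20.1 CPM, edgeR adjusted p = 0.182). In such bulk libraries, fewer cells of a type and less RNA per cell cannot be told apart.

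The complement genes did not move as a block. C3 stood 2.9996 times as high in the libraries labelled knockout, Cd55 2.35 times and C5ar1 1.76 times, whereas C1qa stood at 0.563 of the wild-type level. C1qc and C3ar1 rose slightly, and C1qb, Cfp and Cfb did not pass. All 9 genes passed the filter on low counts. By an edgeR adjusted p of 0.05 over all 13175 genes tested, 5 were higher and 1 was lower, against a background of 21.6% of all tested genes higher, 19.2% lower and 40.9% in either direction. The C1q chains count here as separate genes. The 1 lower gene was C1qa, and the sum of the chains did not pass (edgeR adjusted p = 0.624). The 3 libraries of one label did not overlap the 3 of the other for 7 of the 9, and the same held for 47.8% of all tested genes. Being called was thus common in this table, so sizes are given beside the count. The median log2 change was 0.13 for the 9 genes and -0.0031 over all tested genes. The median absolute log2 change was 0.56 for the 9 genes and 0.17 over all tested genes. That 0.56 is the change of Cfb alone, a gene of few counts that did not pass. The sizes of the 9 were split around it, with C1qc at 0.13 next below and C5ar1 at 0.81 next above. A log2 change of 0.8 in size was reached by 4 of the 9 and by 4.45% of all tested genes. That mark was not fixed in advance and lies just under the sizes of C5ar1 (0.81) and C1qa (-0.83), so the comparison is a description and not a test. The 9 genes were themselves chosen with earlier results of these data known. The other comparisons with all tested genes are therefore descriptions as well.

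**Figure D1:**
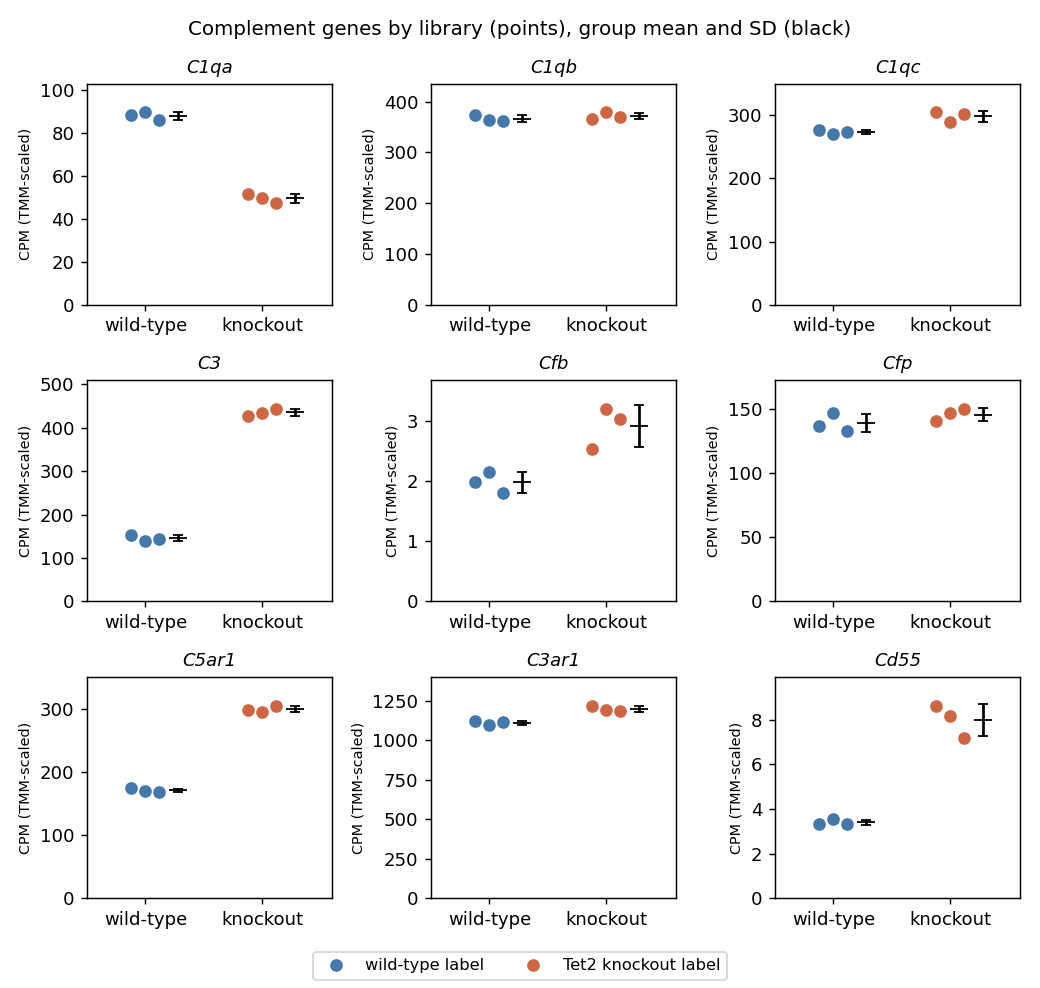
Level of each of the 9 complement genes in CPM (TMM-scaled, linear axis from 0), one panel per gene. Points are the 3 libraries of each label and black bars the mean and SD. C3, C5ar1 and Cd55 are higher and C1qa is lower in the libraries labelled knockout with no overlap, while the points of C1qb and Cfp overlap between the labels.

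The 3 C1q chains parted. C1qa, the A chain, had 51.9, 49.7 and 47.4 CPM under the knockout label against 88.4, 89.7 and 86.3 CPM under the wild-type label. All 3 libraries labelled knockout lay well below the lowest wild-type library. The log2 change of C1qa was -0.83 (SE 0.05; edgeR adjusted p = 3.23e-29). C1qb, the B chain, had 366, 378 and 370.1 CPM against 373, 364 and 362 CPM, and the groups overlapped. Its log2 change was 0.02 (edgeR adjusted p = 0.615), with an approximate 95% interval from -0.03 to 0.07, so any change of C1qb within that interval was far smaller than that of C1qa. C1qc, the C chain, had 304, 289 and 302 CPM against 277, 269.6 and 273 CPM. Its groups did not overlap, and it rose by 0.13 on the log2 scale (SE 0.03; edgeR adjusted p = 0.000193). With a biological coefficient of variation of 0.1 assumed for every gene in place of the fitted 2.63%, the call of C1qc was lost (edgeR adjusted p = 0.558) and that of C1qa was kept (3.01e-09).

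Taken as a complex, C1q did not pass the test. Summed over the chains, the level was 722, 717 and 719 CPM under the knockout label against 738, 724 and 721 CPM under the wild-type label. The highest library labelled knockout lay just above the lowest labelled wild-type, so the groups overlapped. With the chains replaced by their sum in a fit over 13173 genes, the log2 change was -0.02 (SE 0.02; edgeR adjusted p = 0.624), with an approximate 95% interval from -0.06 to 0.03. The sum is dominated by C1qb and C1qc, because C1qa supplied the fewest counts of the chains in every library.

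The makeup of that sum did shift. C1qa gave 7.18%, 6.94% and 6.59% of the C1q counts in the libraries labelled knockout, with 95% Wilson intervals from 6.11% at the lowest bound to 7.70% at the highest. In the libraries labelled wild-type it gave 11.97%, 12.4% and 11.97%, with intervals from 11.3% to 13.1%. These intervals cover counting error only, and no interval of one label touched one of the other. The mean share fell by 5.21 percentage points, from 12.1 ± 0.248% to 6.90 ± 0.299% (SD, n = 3 each; exact permutation test, two-sided, p = 0.1, the smallest that 3 against 3 can give). A share within a library does not depend on how libraries are scaled. Per C1qb count there were 0.134 ± 0.00715 C1qa counts under the knockout label and 0.241 ± 0.00502 under the other. The ratio of C1qc to C1qb moved much less, from 0.746 ± 0.00870 to 0.803 ± 0.0360.

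**Figure D2:**
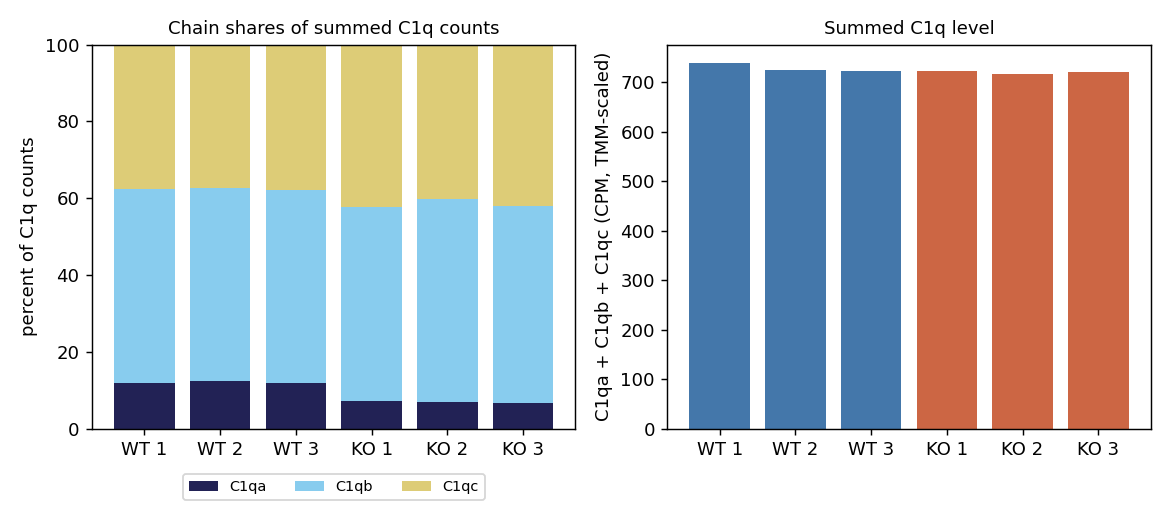
Left, percent of the summed C1q counts that came from C1qa, C1qb and C1qc in each library (WT, wild-type label; KO, Tet2 knockout label). Right, summed C1q level in CPM (TMM-scaled). The C1qa segment is between 6.59% and 7.18% in the KO libraries and between 11.97% and 12.4% in the WT libraries, while the bars on the right are of nearly equal height.

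The chains lie side by side in mm10 on the minus strand of chromosome 4, C1qb (ENSMUSG00000036905) at 136880129 to 136886187, C1qc (ENSMUSG00000036896) at 136889804 to 136893065 and C1qa (ENSMUSG00000036887) at 136895917 to 136898803. The gaps are 3.62 kb and 2.85 kb and the whole cluster spans 18.7 kb. Each chain has 3 exons in its first annotated transcript (GENCODE M21), and no other gene of the table overlaps any of them. The longest exact stretch shared by the C1qa transcript with that of C1qb was 12 bases and with that of C1qc 11 bases, so the chains are not near-identical copies. The nearest tested protein-coding genes outside the cluster are Ephb2, 44.1 kb away (log2 change -0.18; edgeR adjusted p = 0.680), and Zbtb40, 80.9 kb away beside C1qa (log2 change -0.20; edgeR adjusted p = 0.0156). Both changes were smaller in size than that of C1qa, a difference that was not tested.

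C3 showed the largest difference of the 9 genes. It encodes the central component on which all activation routes converge and lies on chromosome 17 (57203970 to 57228136, minus strand; ENSMUSG00000024164). The level was 427, 434 and 442 CPM under the knockout label, against 152, 138 and 144 CPM under the wild-type label. Every knockout-label library stood above every wild-type library by a gap many times the spread within either label. The log2 change was 1.58 (SE 0.03; edgeR adjusted p = 3.17e-71), and 99.3% of all tested genes had a change no larger in size. Leaving out any 1 library, or any other setting tried, kept the change between 1.55 and 1.62. Counts of C3 per count of its receptor gene C3ar1 were 0.351, 0.365 and 0.373 against 0.136, 0.126 and 0.129 within the same libraries. The nearest tested neighbours were Gpr108, with a log2 change of 0.17, and Tnfsf9, with -0.03.

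The other alternative pathway genes gave smaller differences. Cfb, the serine protease of the C3-cleaving enzyme, was close to the lower end of what was tested, with raw counts of 36, 45 and 40 under the knockout label against 28, 26 and 25 under the wild-type label. In CPM these were 2.53, 3.20 and 3.03 against 1.99, 2.15 and 1.80, without overlap. The log2 change of Cfb was 0.56 with an SE of 0.24, and it did not pass (unadjusted p = 0.0227; edgeR adjusted p = 0.0547). It passed without knockout replicate 1 (edgeR adjusted p = 0.0440), and over all settings its adjusted p ran from 0.0440 to 0.174. Of the exonic bases of Cfb, 79.5% are also exonic in Gm20547, a gene model on the same strand that was at 0 in every library, so the value of Cfb is uncertain where counting could split reads between them. Cfp, which encodes properdin, the stabiliser of that enzyme, had 140.4, 146 and 149.8 CPM against 137, 147 and 133 CPM. The groups overlapped, and the log2 change of 0.07 did not pass (edgeR adjusted p = 0.138; approximate 95% interval from 0.00 to 0.14). Without wild-type replicate 2, the shallowest library and the highest of its group for Cfp, it passed (log2 change 0.10; edgeR adjusted p = 0.0208).

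The receptors for the anaphylatoxins C3a and C5a differed in how much they moved. C5ar1 (chromosome 7, 16246743 to 16259540, minus strand), the receptor through which C5a draws and primes phagocytes, had 299, 296 and 306 CPM in the libraries labelled knockout. In those labelled wild-type it had 174, 169.6 and 169 CPM, so the groups stood far apart. The log2 change was 0.81 (SE 0.03; edgeR adjusted p = 9.66e-45). C3ar1 (chromosome 6, 122847138 to 122856161, minus strand), the C3a receptor, had 1218, 1189 and 1186 CPM against 1119, 1098 and 1115 CPM. The groups did not overlap, yet the log2 change was 0.11 (SE 0.02; edgeR adjusted p = 3.52e-05) and 34.5% of tested genes changed by no more than that. The call of C3ar1 was lost with the assumed coefficient of variation of 0.1 (edgeR adjusted p = 0.621). Counts of C5ar1 per count of C3ar1 were 0.246, 0.249 and 0.258 under the knockout label against 0.156, 0.154 and 0.152 under the wild-type label. The exact permutation test of that ratio gave p = 0.1, the smallest possible here (two-sided). C5ar2, the second C5a receptor, which signals little through G proteins, lies 2.59 kb from C5ar1. It had 43, 34 and 39 raw counts against 41, 38 and 40, a log2 change of -0.09 (SE 0.22; edgeR adjusted p = 0.790).

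Cd55 (chromosome 1, 130439027 to 130462744, minus strand), which protects the cell that carries it, was low but clearly separated. It had 123, 115 and 95 raw counts under the knockout label against 47, 43 and 46 under the wild-type label, or 8.63, 8.17 and 7.19 CPM against 3.34, 3.55 and 3.31 CPM. The lowest knockout-label library was above every wild-type library. The log2 change was 1.24 (SE 0.16; edgeR adjusted p = 2.44e-10) and stayed between 1.18 and 1.31 over all settings. Its neighbouring copy Cd55b shares an exact stretch of 198 bases with it and was at 0 in all libraries, so the value of Cd55 is uncertain where reads map to both. An antisense gene model, Gm16083, covers 2.10% of its exonic bases and was at 0 as well.

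The sequence before the start of C3 and of Cd55, the 2 largest rises, is shown with that of C1qb, the gene with the smallest change, because the comparison concerns an enzyme that acts on methylated CpG. The 250 bases before each RefSeq start (GRCm38.p6, which is mm10) are printed 5′ to 3′ on the minus strand, which all 3 genes use. Capitals mark matches to the motifs named after them. The windows are chr17:57228137-57228386 for C3, chr1:130462745-130462994 for Cd55 and chr4:136886201-136886450 for C1qb.
C3: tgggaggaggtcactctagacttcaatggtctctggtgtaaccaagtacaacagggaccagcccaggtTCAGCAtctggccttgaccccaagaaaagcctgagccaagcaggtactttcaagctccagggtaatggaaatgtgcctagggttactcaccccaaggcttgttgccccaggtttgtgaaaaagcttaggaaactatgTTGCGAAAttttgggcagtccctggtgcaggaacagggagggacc
Cd55: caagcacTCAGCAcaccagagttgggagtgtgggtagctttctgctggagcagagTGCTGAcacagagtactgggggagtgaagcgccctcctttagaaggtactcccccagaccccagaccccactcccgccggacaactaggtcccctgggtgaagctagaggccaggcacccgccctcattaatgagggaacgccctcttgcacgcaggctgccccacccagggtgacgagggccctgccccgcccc
C1qb: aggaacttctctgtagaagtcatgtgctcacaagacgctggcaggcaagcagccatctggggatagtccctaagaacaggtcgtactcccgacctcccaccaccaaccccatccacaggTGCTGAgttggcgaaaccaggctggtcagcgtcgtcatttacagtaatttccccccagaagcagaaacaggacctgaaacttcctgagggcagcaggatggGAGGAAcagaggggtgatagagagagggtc

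These windows hold 1 CpG in C3, 8 in Cd55 and 6 in C1qb, against a median of 6 (quartiles 2 and 16) over the 32851 promoters of the table. The 2 genes that rose most sit on either side of that median. The other member windows held 2 CpG in C5ar1, 2 in Cfp, 2 in C1qc and 5 in C3ar1, all under it. A relation between CpG content and the changes was not tested. In C3 the capitals nearest the start, TTGCGAAA, begin 45 bases before it and match the C/EBP pattern TTGCNNAA, which 9.56% of all promoter windows hold on either strand. None of the other 6 member windows matched it. The MAF half-site TGCTGA was found on either strand in C3, C5ar1, C3ar1, Cd55 and C1qb, 5 of the 7 genes with an entry, and in 16.1% of all windows. The PU.1 core GAGGAA was found in C1qb and C1qc and in 23.3% of all windows, and the kappa-B consensus in C1qc and in 7.25%. Neither the interferon-stimulated response element core GAAANNGAAA (2.98% of all windows) nor the GAS pattern TTCNNNGAA (7.02%) occurred in any of the 7. In the members the matches of different motifs did not overlap. The RefSeq starts of C5ar1 and C1qc lie inside the gene spans given above, so most of each window is within the annotated gene. The MAF half-site of C5ar1 and the kappa-B match of C1qc are in that part. A match is a description of letters and not of binding. C1qa and Cfb were not matched to an entry.

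Per kilobase of gene length, the scale on which genes can be set beside one another, C1qb stood highest in the libraries labelled wild-type at 337 ± 5.62 CPM per kb, followed by C3ar1 at 258 ± 2.66 and C1qc at 141 ± 1.85. C1qa at 84.7 ± 1.64 and Cfp at 80.0 ± 4.02 CPM per kb overlapped. C5ar1 came next at 66.5 ± 1.08 and C3 at 28.2 ± 1.35, with Cd55 and Cfb, which overlapped, both near 0.700 (SD, n = 3 for each). The libraries labelled knockout kept the first 3 places but not those after them. There C5ar1 took the fourth place at 117 ± 1.85 CPM per kb, and C3 at 84.5 ± 1.45 overlapped with Cfp at 83.8 ± 2.75. C1qa fell to 47.7 ± 2.16, below both of them, and Cd55 at 1.65 ± 0.152 no longer overlapped with Cfb at 1.03 ± 0.123. The place of Cfb on this scale is uncertain. Its full length is used, although 79.5% of its exonic bases are also exonic in Gm20547 and reads there may not have been counted. Cd55 carries the limit from Cd55b given above. The lengths cover all exonic bases of a gene and can exceed its first annotated transcript. Cd55 has 4853 bases against 2533 and C1qc 1931 against 1203. Their levels here, and the overlap of Cd55 with Cfb, therefore depend on the length used.

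**Figure D3:**
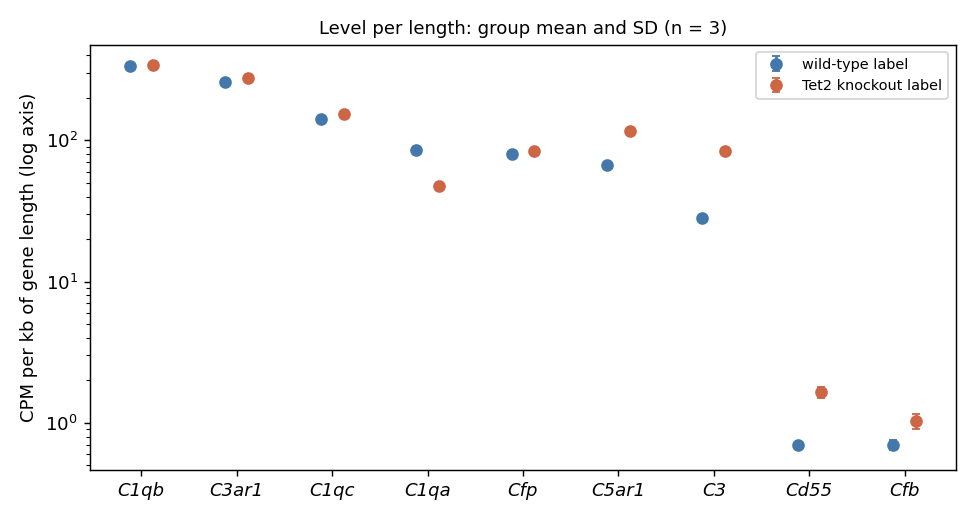
Level per length (CPM per kb of the deposited gene length, log axis) of the 9 complement genes, ordered by the wild-type mean. Points are means and bars the SD of 3 libraries. C5ar1 and C3 lie below C1qa in the wild-type label and above it in the knockout label.

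The rest of the pathway, a list of 51 further complement genes written with earlier results of these data known, was mostly below the filter on low counts. In all, 12 were at 0 in every library, where a count of 0 allows up to 0.211 to 0.248 CPM (3 counts of a library), and 21 passed that filter. Of the 7 genes of the terminal pathway that builds the membrane attack complex none passed that filter, nor did Cfd, which encodes factor D. The precursor of C5a, encoded by Hc, had 3 counts in 1 library and 0 in the others. Of the 21 genes tested, 6 rose, 4 fell and 11 did not pass, next to the 21.6% and 19.2% of all tested genes given above. The median log2 change of the 21 was 0.07, and 10 of the 21 did not overlap between the labels, next to 47.8% of all tested genes.

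The list of receptors and binding proteins for complement components and fragments, which holds C5ar2, had 5 of 9 tested genes higher and 2 lower, next to the same 21.6% and 19.2% of all tested genes. Lrp1, a large endocytic receptor that takes up C1q-tagged material together with calreticulin, went from 1165 ± 28.8 to 1819 ± 41.6 CPM (log2 change 0.64), and Calr, which encodes calreticulin, from 1123 ± 17.4 to 1477 ± 6.79 CPM (log2 change 0.39). Cd93, first described as a C1q receptor, rose from 197 ± 12.9 to 298 ± 5.32 CPM (log2 change 0.60). Lair1, an inhibitory receptor for collagen and for the collagen-like tail of C1q, rose from 74.8 ± 2.63 to 119 ± 3.72 CPM (log2 change 0.66). C1qbp, a mainly mitochondrial protein that binds the C1q head, was at 74.0 ± 1.76 CPM against 87.1 ± 5.54 CPM and fell by 0.23 on the log2 scale (edgeR adjusted p = 1.43e-05). The highest edgeR adjusted p of the 4 that rose was 7.24e-27, for Lair1. None of these 5 called genes overlapped between labels, next to 47.8% of all tested genes without overlap. With the assumed coefficient of variation of 0.1, only C1qbp among them lost its call (edgeR adjusted p = 0.211).

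The integrin receptors for C3 fragments share the chain encoded by Itgb2 and differ in the partner. Itgb2 rose from 497 ± 4.14 to 600.0 ± 9.20 CPM (log2 change 0.27), a call lost with the assumed coefficient of variation (edgeR adjusted p = 0.112). Itgam, the partner in complement receptor 3, stood at 55.1 ± 2.50 against 55.8 ± 0.761 CPM and did not pass (edgeR adjusted p = 0.826). Itgax, the partner in complement receptor 4, had 128, 128 and 134 raw counts against 424, 351 and 459 and fell by 1.71 on the log2 scale (SE 0.09; edgeR adjusted p = 1.85e-32). Counts of Itgax per count of Itgam were 0.155, 0.171 and 0.187 under the knockout label against 0.538, 0.512 and 0.600 under the wild-type label. Itgax is also a dendritic cell gene. The dendritic cell marker list, which does not hold it, summed to 5.40 to 6.68 CPM under the knockout label and 3.27 to 4.82 CPM under the wild-type label, with 2 of its 7 genes at 0, and its part in the Itgax difference was not tested.

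Among the regulators, Csmd1, a membrane inhibitor better known from the nervous system, rose by 0.33 on the log2 scale (edgeR adjusted p = 0.00839), a call lost without knockout replicate 2 (0.0609), without wild-type replicate 1 (0.0508) and with the assumed coefficient of variation (0.126). Cr1l, the rodent membrane regulator also called Crry, stood at 94.1 ± 0.983 against 96.5 ± 3.35 CPM and did not pass (edgeR adjusted p = 0.520). Serping1, which encodes the C1 inhibitor, did not pass either at 16.2 ± 1.22 against 15.5 ± 0.234 CPM, nor did Cd59a at 6.88 ± 1.28 against 6.69 ± 0.131 CPM.

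In the classical and lectin pathways the proteases that join C1q did not pass. C1ra had 10.4 ± 2.001 CPM under the knockout label and 10.7 ± 0.838 under the other, and C1s1 had 4.38 ± 0.793 and 3.99 ± 0.0992. Masp1, a protease of the lectin pathway, was at 3.26 ± 0.232 CPM against 5.12 ± 0.236 CPM and fell by 0.65 on the log2 scale (SE 0.19; edgeR adjusted p = 0.00247). Colec12, a scavenger receptor with a collectin domain, fell by 0.16 on the log2 scale (edgeR adjusted p = 0.00994). Its call was lost with DESeq2 (adjusted p = 0.0545), without knockout replicate 3 (edgeR adjusted p = 0.101), without wild-type replicate 1 (0.112) and with the assumed coefficient of variation (0.462).

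**Figure D4:**
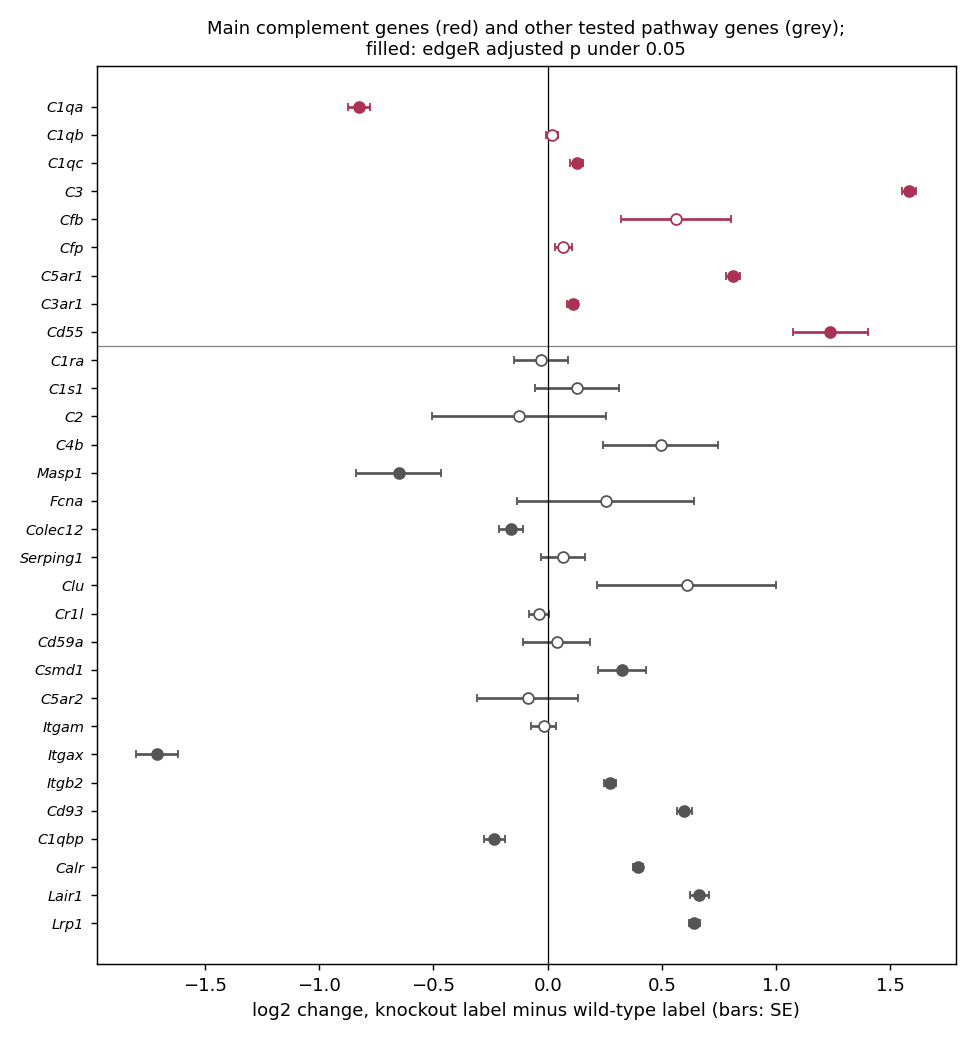
Log2 change, knockout label minus wild-type label, of the 9 complement genes (red, upper part) and the 21 other tested pathway genes (grey), with the SE as bars. Filled points passed an edgeR adjusted p of 0.05. C3 at 1.58 and Itgax at -1.71 lie farthest from 0 on their sides, and C1qa stands apart from C1qb and C1qc.

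Across the 6 libraries, the protein-coding genes of at least 10 CPM most like C3 by Pearson correlation of log2 CPM were Map4k3, Nrp2 and Igf2r, with r from 0.9998 to 0.9999. For C5ar1 they were Stab1, Sirpa and Limd2, and for C1qa they were Il7r, Zc3h15 and Ccrl2. These are 6 points in 2 groups, and high values were common: of 8782 genes compared, 1126 reached an r over 0.95 with C3, 1108 with C5ar1 and 686 with C1qa. The sizes differed nonetheless, since Map4k3 changed by 0.17 on the log2 scale where C3 changed by 1.58. Zc3h15 changed by -0.21 where C1qa changed by -0.83.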

How the data were processed

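RNA from 6 macrophage cultures was sequenced, with groups taken from the genotype in the labels. The deposited values are raw read counts per gene from the authors, not normalised, and fastp, STAR, featureCounts and mm10 are named per the submitters' processing notes, without versions or a strand setting, so reads of antisense pairs cannot be told apart. Each of the 6 columns was tied to its sample through the description in its label. Counts were fitted over all genes with edgeR 4.0.16 in R 4.3.3 (filterByExpr with a minimum count of 10, TMM, robust quasi-likelihood test, Benjamini-Hochberg adjustment, threshold 0.05), and the test was tried on simulated data first. Log2 changes are the knockout label minus the wild-type label, and the approximate 95% intervals are symmetric around them. C1q was also fitted as the sum of its chains, and its shares were tested by exact permutation. Levels per length use the gene lengths of the table. Annotation is GENCODE M21, and promoter sequences are from RefSeq (GRCm38.p6), matched for 7 of 9 genes.

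The 9 genes, the pathway and marker lists and the motifs were chosen with earlier results of these data known. A gene of the pathway list and a gene of the macrophage marker list are not reported here and were left out of their counts. The text names the 9 genes, Tet2, every further pathway gene that passed, the 5 with the highest mean CPM that did not, and the 3 genes most like C3, C5ar1 and C1qa. Cfb's neighbour Gm20547, C5ar2, C1s1, Hc, Cfd and Cd55b were named after their values were seen. Alternatives were other scalings (upper quartile, RLE), other tests (limma-voom of limma 3.58.1, DESeq2 1.42.0), no filter or a floor of 1 CPM in 3 libraries, coding genes alone, a replicate block, each library left out, and 0.1 as the biological coefficient of variation of every gene. Of the marker lists, those not given with the results were neutrophil, at a summed 4.21 to 6.18 CPM over all libraries, B cell 0.378 to 1.33 under the knockout label and 0.0719 to 0.330 under the wild-type label, mast cell and basophil 0.213 to 0.497 over all libraries, and erythroid 0.421 to 1.07 under the knockout label and 0.165 to 0.432 under the wild-type label. Figures were drawn in Python 3.11.15 with matplotlib 3.10.9.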

Additional observations from a re-analysis of the deposited data

How the results depend on the processing

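Over 15 alternatives the calls of C1qa, C3, C5ar1 and Cd55 kept their direction and passed each time. With an assumed biological coefficient of variation of 0.1, 3 of the 9 genes were called higher in place of 5, 4 of the other pathway genes higher in place of 6 (Csmd1 and Itgb2 lost) and 2 lower in place of 4 (Colec12 and C1qbp lost), while 1885 of all genes passed in place of 5385. The summed C1q change stayed between -0.04 and -0.01 on the log2 scale and passed under none. The change of the C1qa share was -5.21 percentage points of all C1q counts. It was -7.60 with C1qa and C1qb as the denominator, -10.1 with C1qa and C1qc, and -6.27 with counts scaled by length, as those denominators make it. Leaving out each library gave -5.35 to -5.05, with 5 to 6 of the 9 genes higher (6 without knockout replicate 1, through Cfb, or wild-type replicate 2, through Cfp), 1 lower, and 5 to 6 pathway genes higher and 3 to 4 lower. With the replicate number as a replicate block the calls were as many, with 5 of the 9 genes higher, 1 lower and a C1qa share change of -5.21. Libraries of equal number did not deviate together (r = 0.00365, -0.00646 and -0.0206 across genes). Whether they share more than a number is not in the labels, and correlations from 3 libraries per label cannot settle it. Of the 9 genes, Cfb had the fewest counts, with 25 to 45 a library.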
